A study of Mus musculus with 14 samples.

Results

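The 8 postnatal libraries of a study of histone H3 lysine 4 trimethylation (H3K4me3) in mouse cortex fell into 2 sides of 4. The sides were chosen by the percentage of each library's summed signal that lay in the strongest regions of its table, those with a mean over all 8 libraries above 3000. The high side held nicotine 1 and 2 and saccharin 3 and 4, and the low side held nicotine 3 and 4 and saccharin 1 and 2. These were 8 of the 14 libraries in the series, and each side held both treatments. The split was selected on measured signal and not on a label, so the differences between the sides are given as a description, with no test.

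All samples were cerebral cortex of C57BL/6J mice at 3 months of age. The chromatin was immunoprecipitated with 1 H3K4me3 antibody and sequenced on an Illumina Genome Analyzer. The postnatal groups received nicotine or saccharin solution only after birth, and saccharin was the control. The other 6 libraries came from mice that received the same solutions before and after birth (nicotine 1, 3 and 4; saccharin 1, 2 and 3). The protocol text in the labels is the same for all groups: it has the mothers drinking the solutions from conception, the offspring taken off them at weaning, and no treatment until collection. For the postnatal groups this does not match the group names, which are followed here, so the start of their exposure is uncertain. Sex, dose and the number of animals behind a library are not in the labels. Whole cortex is a mixture of cells, so in these data fewer cells of a type and less mark per cell cannot be told apart.

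H3K4me3 marks nucleosomes around transcription start sites. It is deposited by SET1 and MLL complexes and is densest at CpG-rich promoters of active genes. A chromatin immunoprecipitation always carries some background DNA along with the marked fragments. In mouse alignments, reads from high-copy repeats collect on a few short stretches, among them the start of chromosome 9 and a stretch of chromosome 2. No repeat annotation was used here, so the regions are named below by their position and level and not as satellites. No input library or other direct measure of enrichment was used either, so the share is the quantity reported and its link to enrichment quality was not tested.

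Before any region is compared, the libraries themselves need a caution. The 8 postnatal libraries were counted as 4 samples, because the libraries within nicotine 1 and 2, nicotine 3 and 4, saccharin 1 and 2, and saccharin 3 and 4 differed by close to counting noise. The mean squared difference within these pairs was 1.00 to 1.07 times that noise, against 2.32 to 2.70 times for the other pairs of the same treatment. Each of those other pairs set a high-side against a low-side library, and libraries of different treatments were not compared. Each pair was averaged, which left 2 samples on each side, 1 for each treatment. The authors' tables hold 14881 regions with values, of which 11388 carry a gene and 3493 do not. The values are normalised signals that are not divided by region width, so a wide region can hold more than a narrow one of the same density. Summed signal ranged from 2011059 to 2480402 over the 4 samples, while the signal outside the strongest regions was nearly level between libraries, from 1788298 to 1855606.

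The strongest regions held 25.5% of the summed signal in nicotine 1, 24.9% in nicotine 2, 17.8% in saccharin 3 and 19.5% in saccharin 4. On the low side it was 9.41% in nicotine 3, 10.7% in nicotine 4, 8.30% in saccharin 1 and 8.65% in saccharin 2. Within nicotine the averaged samples stood at 25.2% and 10.04%, and within saccharin at 18.7% and 8.47%. The gap was therefore wider among the nicotine samples than among the saccharin samples. All 6 pre- and postnatal libraries lay above the low side, from 19.1% in nicotine 1 to 49.7% in nicotine 3. In between stood saccharin 2 at 28.8%, saccharin 3 at 33.1%, saccharin 1 at 39.9% and nicotine 4 at 41.9%.

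**Figure D1:**
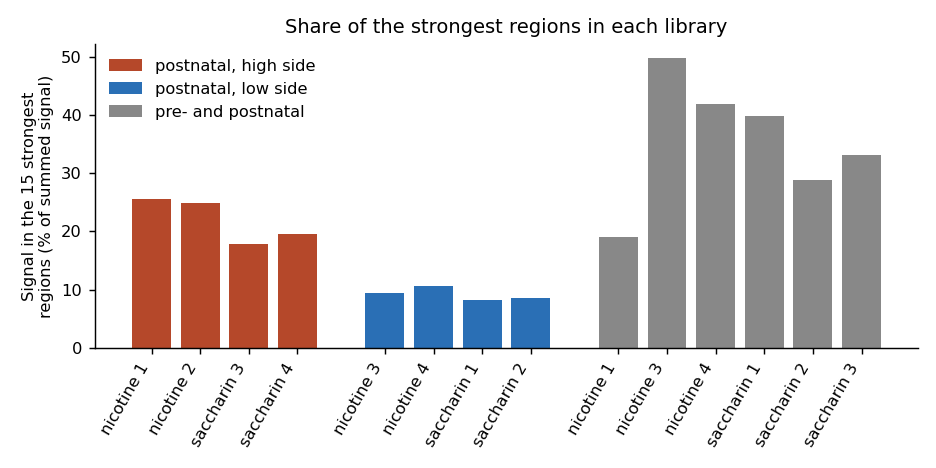
Percentage of each library's summed signal in the 15 strongest regions, 1 bar per library. The 4 high-side postnatal libraries (red) run from 17.8% to 25.5%, the 4 low-side ones (blue) from 8.30% to 10.7%, and the 6 pre- and postnatal libraries (grey) from 19.1% to 49.7%.

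The 15 regions that set the share moved almost as 1 block. The difference, given throughout as the log2(signal + 1) of the high side minus that of the low side, averaged over the 2 treatments, ranged from 1.09 to 1.46 with a median of 1.41. The strongest, chr2:98506096-98507822 (mm9, the build of the files), had a signal of 255007 in nicotine 1 and 2 and 168557 in saccharin 3 and 4. On the low side it had 86188 in nicotine 3 and 4 and 66588 in saccharin 1 and 2. Chromosome 9 held 10 of the 15, chromosome 2 held 3, and chromosomes 6 and 12 held 1 each. Of the chromosome 9 regions, 9 stood within one stretch near 3.0 Mb, and the other was chr9:35112263-35113625, with a difference of 1.46.

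A single strongest region carried a gene, Chl1, which encodes a cell adhesion molecule of the L1 family. Its region, chr6:103598740-103599585, had a signal of 8391 and 5607 in the high-side nicotine and saccharin samples and 3167 and 3276 in the low-side ones. Its difference of 1.09 was the smallest of the 15. The nicotine difference was 1.41 and the saccharin difference 0.78. Just inside the threshold of 3000 lay chr9:3021795-3022532, with a mean of 3518 and a difference of 1.42. Just outside lay chr9:3037712-3038756, with a mean of 2670 and a difference of 1.44, chrX:139917244-139918023, with 2514 and 1.03, and the region of the predicted gene 2210408I21Rik, with 2382 and 1.48. Of the 10 regions next below the threshold, the 8 strongest had differences of 1.02 to 1.52. The other 2, regions of the genes Cpeb2 (mean 1097) and Cdk13 (mean 966.4), had -0.06 and -0.09.

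The rest of the genome followed the sides far less. After the 15 strongest regions were set aside, 12955 regions had a mean signal of at least 20. Both high-side samples lay above both low-side samples in 2679 of them (20.7%), and below in 3206 (24.7%). The median difference over all of them was -0.02. A region was counted on the high side when its samples did not overlap and it was at least 2-fold higher there. This held for 141 regions (1.09%), and the mirror condition for 0 (0.0%). The count depended on the scaling. It was 84 with a pseudocount of 5, 63 with offsets fitted to abundance and 52 under quantile normalization, and each of the last 2 also gave 4 regions on the low side. At a smaller difference of 0.5, a step chosen after the values were seen, the counts were 975 above and 86 below. Under each of these settings more regions stood on the high than on the low side.

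The direction depended on how strong a region was. The regions were put into 10 classes of equal size by mean signal, class 1 holding the weakest. Class 1 had a median difference of 0.45, and classes 2 to 5 had 0.26, 0.22, 0.09 and 0.01. From class 6 upward the medians were negative and nearly level, at -0.04, -0.07, -0.07, -0.07 and -0.07. In class 3, with signals of 28.4 to 42.2, 681 regions lay above and 135 below, whereas in class 9, from 206.3 to 286.3, 96 lay above and 511 below. Both treatments ran downward through the weaker classes, but they parted in the stronger ones. From class 6 to class 10 the nicotine medians were -0.06, -0.07, -0.05, -0.04 and -0.01, back toward 0. The saccharin medians were -0.01, -0.06, -0.08, -0.11 and -0.13, so the level averaged medians stand for 2 unlike courses. The gradient depended on the scaling. With equal sums outside the strongest regions class 1 stayed at 0.46, but under quantile normalization it was -0.01 and under offsets fitted to abundance -0.03, both of which level such a trend by their construction.

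**Figure D2:**
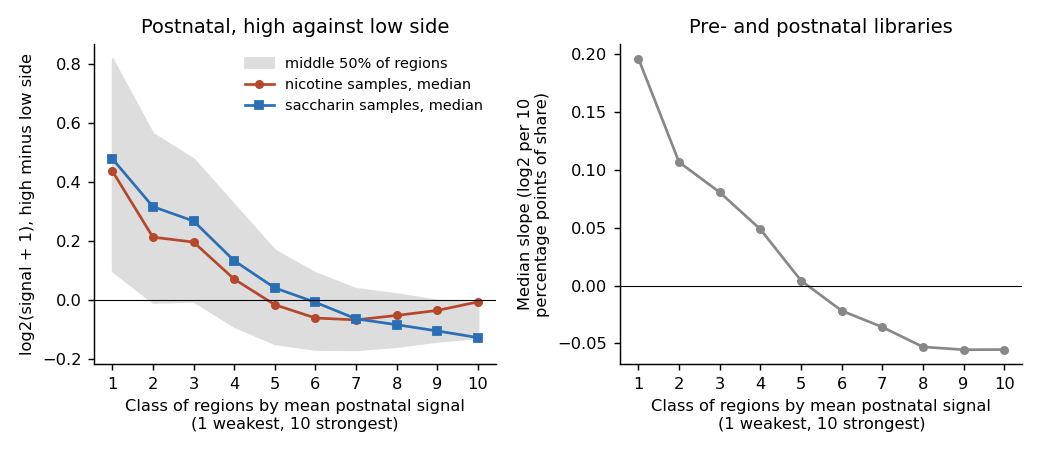
Left, median log2 difference of the high over the low side for 10 classes of regions by mean postnatal signal (1 weakest, 10 strongest), for nicotine (red) and saccharin (blue) samples, with the middle 50% of regions in grey. Right, the median slope on the share in the pre- and postnatal libraries for the same classes. Over all regions both go from positive in class 1, 0.45 and 0.20, to negative in class 10, -0.07 and -0.06, and in the strong classes the nicotine median returns toward 0 while the saccharin median falls further.

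The same gradient stood in the 6 pre- and postnatal libraries, which had no part in choosing the sides. For each region the log2 signal was fitted with limma on the share and the treatment, and the slope is the log2 change for 10 percentage points of share. The median slope was 0.20 in class 1, 0.00 in class 5 and -0.06 in class 10. These medians are for the values as deposited, and the gradient of the slopes was not examined under another scaling. Of 14864 regions tested, 79 (0.531%) rose with the share and 18 (0.121%) fell, at a Benjamini-Hochberg adjusted p of 0.05. Without adjustment 929 rose and 874 fell at a p under 0.05. The counts rest in part on single libraries. Without nicotine 3, the library with the largest share, 40 rose and 3 fell. The number that fell was 6 without nicotine 1, 62 without nicotine 4, 36 without saccharin 1 and 2 without saccharin 2.

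All 79 regions that rose had a positive difference in the postnatal libraries. Of these, 73 had a mean of at least 20, and in 71 of the 73 both high-side samples lay above both low-side samples. Of the 79, 50 were among the 141 high-side regions, so 35.5% of the high-side regions rose, against 0.531% of all regions tested. Without nicotine 3 the number was 31, and under quantile normalization 30. The slope was positive in 131 of the 141, with a median of 0.40 against -0.02 over the 12955. The 2 sets of libraries share no sample. Both have in common the same region set and the authors' processing.

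**Figure D3:**
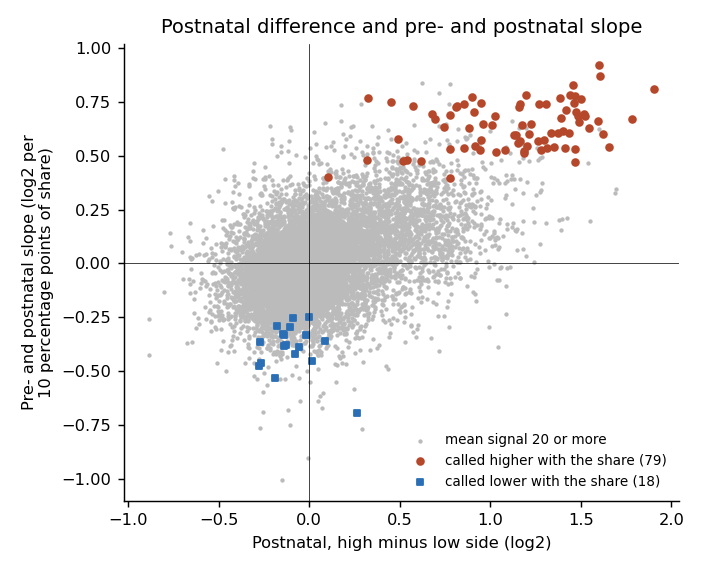
Each point is a region (grey, those with a mean postnatal signal of at least 20), with its postnatal log2 difference on the x axis and its pre- and postnatal slope on the y axis. The 79 regions called higher with the share (red) all lie to the right of 0, and 15 of the 18 called lower (blue) lie to the left.

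The high-side regions are described in 2 groups, split at a mean signal of 100. This cut was not planned, and a break in the values at that level was not tested. The first group was 31 regions with a mean above 100, of which 23 carried no gene. Their median difference was 1.43, and it was larger in nicotine than in saccharin in 30 of the 31, with medians of 1.59 and 1.09. That is the order of the shares themselves, whose gap was wider in nicotine. Of these 31, 29 rose with the share in the pre- and postnatal libraries, with a median slope of 0.66. They were narrow, with a median width of 1074 bp against 1675 bp for all regions.

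The other group was 110 regions with a mean of 20 to 100, of which 67 carried a gene. Their median difference was 1.15, and it was larger in nicotine than in saccharin in 64 of the 110, with medians of 1.22 and 1.12. Of these, 21 rose with the share in the pre- and postnatal libraries, with a median slope of 0.34. The 2 groups thus overlapped in the size of their postnatal difference but differed in how often they passed the test. The median signal was 373.3 in the first group and 28.6 in the second, and the part of signal strength in that gap was not tested.

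**Figure D4:**
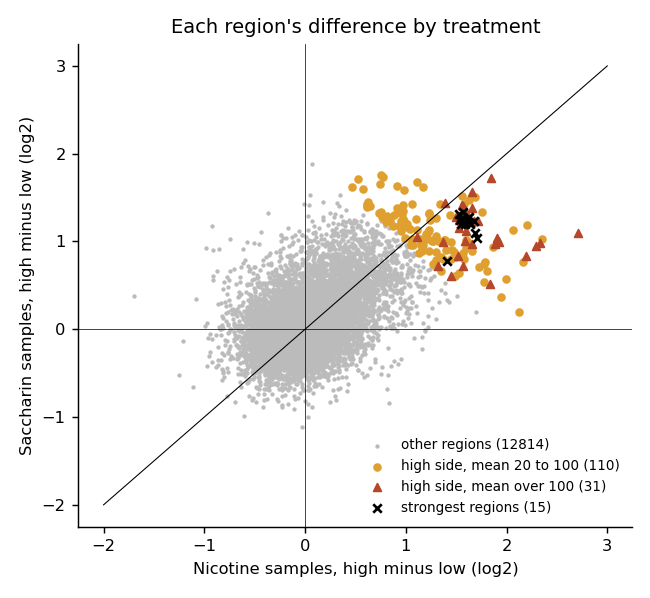
Each region's difference between the sides in the nicotine samples (x axis) and in the saccharin samples (y axis), both log2, with the line of equal differences. The strongest regions (crosses) and 30 of the 31 high-side regions with a mean over 100 (red triangles) lie below the line, toward a larger nicotine difference. The 110 weaker high-side regions (yellow) spread to both sides of it.

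Among regions without a gene, the high side took 66 of 2568 (2.57%), and among regions with a gene, 75 of 10387 (0.722%). The unassigned regions on the high side had a median difference of 1.27, and 37 of the 66 rose in the pre- and postnatal libraries. For those with a gene the median was 1.12, and 13 of the 75 rose. The contrast was marked among strong regions. At a mean of 160 to 3000, 16 of 661 regions without a gene stood on the high side against 5 of 3535 with one. At a mean of 20 to 40 the corresponding counts were 34 of 685 and 55 of 1658, and the medians were 0.21 and 0.24. At equal level the bulk of unassigned regions therefore had about the same difference as regions with a gene, and the excess lay in a small number of outlying regions.

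Several unassigned regions had among the largest differences of the whole table. The region chr5:115372013-115372901 had a signal of 188.7 and 133.6 on the high side, in nicotine and saccharin, and 51.9 and 39.8 on the low side, a difference of 1.78. It rose in the pre- and postnatal libraries with a slope of 0.67 ± 0.07 (SE; limma adjusted p = 1.7e-07). The region chr11:107059876-107061145 had 245.0 and 148.5 against 49.2 and 76.3, and a slope of 0.60 ± 0.08 (limma adjusted p = 4.0e-05). The one measured region of the Y chromosome, chrY:2765482-2766125, had 276.1 and 178.9 against 54.1 and 90.1. Its slope was 0.54 ± 0.07 (limma adjusted p = 1.3e-05). In all 3 the sides did not overlap, but the slope missed the threshold without pre- and postnatal nicotine 1, with an adjusted p of 0.37, 0.93 and 0.64 in that order. A further 2 weaker regions completed the 5 largest, chr3:8244681-8245899 with a difference of 1.69 and chr16:3350580-3351461 with 1.60, and neither passed the test (limma adjusted p = 0.44 and 0.10).

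The unassigned regions at the other end were all weak. The lowest was chr11:100956390-100957533, with 13.4 and 18.8 on the high side and 30.01 and 30.23 on the low side, a difference of -0.88. The next 4 ran from -0.67 to -0.65. None of the 5 passed the pre- and postnatal test.

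High-side regions also came in runs. In all, 5 runs held at least 3 high-side regions with gaps of at most 100 kb, and together they held 21 of the 141. The first was chr9:3008103-3038756, where 4 regions stood among strongest regions and 1 just after the last of them. Of the 4, chr9:3014962-3015654 overlapped the strongest region chr9:3015394-3016657, so reads may be shared with a region that sets the share. The differences of the 5 ran from 1.38 to 1.46 and all 5 rose in the pre- and postnatal libraries. A run at chr1:85246931-85277601 held 7 regions, 5 of them on the high side, with a median of 1.19, and 5 of the 7 rose. It includes regions of the predicted gene C130026I21Rik. A run at chr1:87480946-87522055 held the regions of Sp110 and Sp140, which encode nuclear body proteins of the Sp100 family. It comprised 5 regions from 0.93 to 1.37, of which 3 rose. A run at chr8:19923737-19932728 held 6 regions without a gene, from 1.01 to 1.28, and 5 of them rose. The run at chr2:181651756-181666332 held 3 regions without a gene, from 1.17 to 1.35, and 2 of them rose.

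Regions that start within 5 Mb of a chromosome's first base held 15 high-side regions of 283, or 5.30% against 1.09% overall. Within 100 kb of a strongest region all 7 measured regions lay above, and 5 of these were on the high side. The median over the 283 was -0.01, so the excess came from a minority of them.

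Among regions with a named gene, several of the largest differences lay at a narrow region of a gene that also had a region nearly level between the sides. The largest of all was at Mamdc2, which encodes a secreted MAM-domain proteoglycan. Its region chr19:23431589-23432405 had a signal of 215.1 and 117.0 in the high-side nicotine and saccharin samples and 32.0 and 54.2 in the low-side ones. The difference was 1.90, the nicotine difference 2.71 and the saccharin difference 1.09. In the pre- and postnatal libraries it rose from 35.6 in nicotine 1, the library with the smallest share, to 237.4 in nicotine 3, with the largest. The slope was 0.81 ± 0.09 (limma adjusted p = 9.7e-07), and without nicotine 1 it was 0.65 with an adjusted p of 0.24. Here the second region also lay higher on the high side. It was weaker, with 24.7 and 28.4 against 15.1 and 10.9, and did not rise with the share (slope 0.03, limma adjusted p = 0.97).

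Ank1 encodes ankyrin 1, which ties membrane proteins to spectrin. One of its 4 regions, chr8:24205550-24206685, had 669.5 and 457.3 on the high side against 212.1 and 154.2, a difference of 1.61. Its slope was 0.87 ± 0.06 (limma adjusted p = 8.7e-11). The other 3 regions of the gene had differences of 0.08, -0.27 and -0.23, and none passed the test.

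Mdga2 encodes a membrane-anchored protein that binds neuroligins. Its region chr12:68159849-68161418 had 1581 and 1054 on the high side against 499.9 and 403.5, a difference of 1.52. The slope was 0.68 ± 0.04 (limma adjusted p = 9.0e-13), but under quantile normalization the slope was -0.01. Its other region, chr12:68321163-68324442, was wider and had 377.2 and 364.3 against 399.9 and 387.6, a difference of -0.09. In the 4 samples the 2 regions of this gene therefore kept opposite order between the sides.

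Cdk5rap2, which encodes a centrosomal protein, and Litaf, which encodes a protein of late endosomes, showed the same split. The narrow Cdk5rap2 region had 1309 and 707.7 on the high side against 348.7 and 344.8, with a slope of 0.78 ± 0.05 (limma adjusted p = 1.9e-12). Its other region differed by -0.05. The narrow Litaf region had 338.4 and 221.0 against 128.6 and 80.9, with a slope of 0.54 ± 0.06 (limma adjusted p = 1.5e-07). Its other region differed by -0.16. Smo, the signal transducer of the Hedgehog pathway, had a region with 184.8 and 129.4 against 51.1 and 90.0, a difference of 1.18, beside one of -0.15. Neither Smo region passed the pre- and postnatal test (limma adjusted p = 0.69 and 0.94).

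Over the 405 genes with 2 or more regions measured, the strongest region had a median difference of -0.05 and the weakest one of 0.08. The weakest had the larger difference of the 2 in 268 genes (66.2%). Ank1, Mdga2, Cdk5rap2 and Litaf ran the other way, since the region with the large difference was the strongest of the gene. At Smo it was the weaker of the pair. These 5 genes were selected on earlier results.

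The remaining genes among the 14 largest were weak regions. Xab2, which encodes a splicing and repair factor, had 41.2 and 60.5 on the high side against 18.5 and 18.2. Nfyc, a subunit of the CCAAT-binding factor NF-Y, had 33.1 and 49.1 against 12.5 and 17.7, while the other Nfyc region differed by -0.07. Pmvk, an enzyme of the mevalonate pathway, had 25.8 and 37.7 against 13.2 and 11.5. In these 3 genes the saccharin difference exceeded the nicotine one, the reverse of the order in the strong regions, and none passed the pre- and postnatal test (limma adjusted p = 0.67, 0.64 and 0.89).

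Sp110 and Sp140 lie in the run on chromosome 1. The Sp110 region with the largest difference had 39.3 and 36.2 against 13.86 and 14.04, and a slope of 0.61 ± 0.14 (limma adjusted p = 0.027). That call was lost in 4 of the 6 fits that left out a pre- and postnatal library, those without nicotine 1, nicotine 3, saccharin 1 and saccharin 2, with adjusted p of 0.073, 0.23, 0.11 and 0.070. These genes belong to a duplicated family, so reads may have been split among copies and the values are uncertain. The same holds for Tcp10a, from a family of t-complex copies, with 138.3 and 86.9 against 29.3 and 37.7 and an adjusted p of 0.27. Spryd4, Fbxw4 and Sparcl1, the last of which encodes a matrix protein secreted by astrocytes, had differences of 1.28, 1.27 and 1.26, with limma adjusted p of 0.50, 0.11 and 0.23.

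The 14 lowest named regions were weaker in the high-side libraries by less than 2-fold. The lowest was Rerg, a Ras-related growth inhibitor, with 14.6 and 21.2 on the high side against 36.1 and 30.8, a difference of -0.88. Krt1, a keratin, followed at -0.80, and Gins1, of the replicative helicase complex, at -0.77. Regions with more signal stood among them too. Rangap1, which activates the GTPase Ran, had 88.1 and 105.1 against 156.6 and 144.3. Rrp7a, an rRNA processing factor, had 66.4 and 83.4 against 117.1 and 116.5. Actr8, a subunit of the INO80 remodeller, had 76.4 and 62.2 against 107.4 and 111.3. The others were Kcnh6, Irx1, Rpp21, Matn3, Pion, Bhlhb9, Gtf2h2 and Unc13a, from -0.70 to -0.63. None of the 14 passed the pre- and postnatal test, where their slopes ran from -0.43 in Rerg to 0.14 in Gins1.

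**Figure D5:**
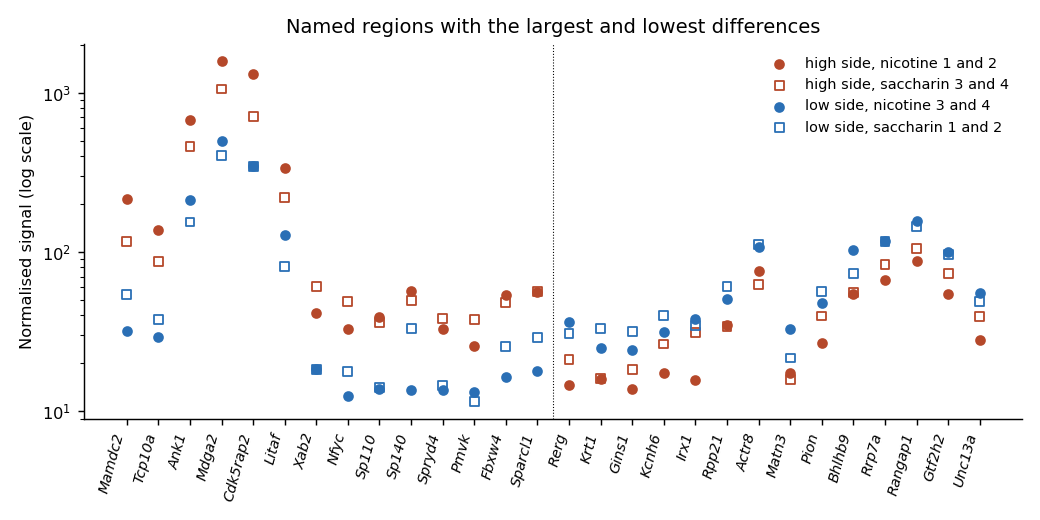
Normalised signal (log axis) in the 4 averaged postnatal samples for the 14 named regions with the largest difference, left of the dotted line, and the 14 with the lowest, right of it. High-side samples are red and low-side ones blue, with circles for nicotine and squares for saccharin. The left regions run up to 1581 in Mdga2, while the right ones reach at most 156.6, in Rangap1.

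The regions that fell with the share in the pre- and postnatal libraries were mostly strong. Of the 18, 17 had a mean postnatal signal above 100, with a median of 204.8, and 15 carried a gene. The exception was Aldh6a1, whose 4 postnatal samples lay between 25.03 and 45.46. They include Cdk13, a transcriptional kinase (slope -0.25 ± 0.05, limma adjusted p = 0.011), Kpnb1, the nuclear import receptor importin beta (slope -0.53 ± 0.12, adjusted p = 0.036), and Srm, spermidine synthase (slope -0.38 ± 0.08, adjusted p = 0.017). Chd3, a subunit of the NuRD remodeller, Kif3a, a kinesin motor, and Clcn3, a chloride transporter, had slopes of -0.42, -0.38 and -0.36. In the postnatal samples 15 of the 18 (83.3%) had a negative difference, with a median of -0.12. In the 4 strongest level classes, which held 17 of the 18, 72.5% of all regions had a negative difference too. Cdk13 had 1006 and 868.5 on the high side against 1027 and 964.3, so its sides overlapped.

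The part of the remaining signal in unassigned and in narrow regions was higher where the share was higher, but a few strong regions made most of that. Outside the strongest regions, regions without a gene held 18.7% and 18.4% of the signal in the high-side nicotine and saccharin samples and 17.5% and 17.5% in the low-side ones. The narrowest 25% of regions held 7.21% and 7.05% against 5.74% and 5.71%. The weakest 25% of regions held 4.10% and 4.63% against 3.44% and 3.52%. In each of the 3 classes the sides did not overlap.

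The 6 pre- and postnatal libraries gave a test of these 3 relations. The part held by regions without a gene ranged from 18.6% to 22.6% and rose with the share (Pearson's r = 0.97, exact permutation p = 0.0069, adjusted over the 3 relations 0.010; Spearman's rho = 0.94, exact p = 0.017, adjusted 0.025). The narrowest 25% ranged from 7.11% to 12.3% (r = 0.98, exact p = 0.0056, adjusted 0.010; rho = 0.94, exact p = 0.017, adjusted 0.025). For the weakest 25% r was 0.81 (exact p = 0.049, adjusted 0.049), but rho was 0.71 (exact permutation p = 0.14). All were two-sided. Without the 2 libraries farthest from the median share, nicotine 1 and nicotine 3, r was 0.90, 0.92 and 0.79. Within the 3 nicotine libraries r was 0.99, 0.99 and 0.93, and within the 3 saccharin libraries 0.94, 0.98 and 0.81, with too few libraries for a test.

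Strong high-side regions just below the threshold of 3000 count in these classes, and some exceed it in these libraries. The region chr9:3037712-3038756 had 10249 in nicotine 3. The 31 high-side regions with a mean over 100 were therefore left out as well, an alternative chosen after seeing the data. In nicotine 1 and nicotine 3, the unassigned ones among them held 1.48% and 5.78% of the remaining signal. Without the 31, regions without a gene held 17.4% to 18.4% over the 6 libraries, and the relation no longer passed (r = 0.78, exact permutation p = 0.069, adjusted 0.069; rho = 0.77, exact p = 0.10, adjusted 0.14). The narrowest 25% held 5.84% to 7.65% (r = 0.85, exact permutation p = 0.029, adjusted 0.046; rho = 0.83, exact p = 0.058, adjusted 0.14). The weakest 25%, which held none of the 31, had r = 0.85 (exact permutation p = 0.031, adjusted 0.046; rho = 0.71, exact p = 0.14, adjusted 0.14). The postnatal gaps shrank too, to 17.4% and 17.5% against 17.0% and 17.1% for regions without a gene.

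Width went with the difference as level did. In 4 classes of equal size from the narrowest to the widest regions the median differences were 0.06, -0.01, -0.03 and -0.04, and the high side held 68, 48, 16 and 9 regions. Narrow regions were also the weak ones, with a median signal of 32.8 in the first class and 214.3 in the last. Across the 12955 regions Spearman's rho of the difference was -0.36 with level and -0.12 with width. Regions are not independent replicates, and these are descriptions.

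The promoter sequences of the genes that followed the sides were poorer in CpG. RefSeq promoters (GRCm38.p6, 250 bases before to 50 after the start) were matched for 5911 genes with a single promoter entry and a single region. The match was by gene and not by position, so a promoter need not lie in the measured region of its gene. Their median was 22 CpG dinucleotides in 300 bases. It was 14.5 in the 34 matched high-side genes, 16 in the 386 with a difference of at least 0.5 and 20 in the 35 at -0.5 or below. The share of genes lying above was 33.5% at 5 to 9 CpG and 8.94% at 30 or more. CpG-rich promoters were also the stronger ones, with a median signal of 213.8 at 30 or more CpG against 53.7 at 5 to 9. At a mean of 20 to 40, promoters with under 10 CpG and the rest had median differences of 0.29 and 0.24, and at 40 to 80 they had 0.05 and 0.06. Within these 2 ranges of signal the CpG-poor and the other promoters thus had nearly the same median.

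The following 4 promoters show this range. Zfp60 (difference 1.04, 17 CpG) and Rrp7a (-0.64, 20 CpG) are near the median of their own direction. Scn1a (0.92, 5 CpG) and Rangap1 (-0.64, 26 CpG) are a CpG-poor and a CpG-rich example. Among the named genes Sox5 (1.18) has fewer (3) and Rpl28 (0.72) more (29). CpG count and direction did not always go together. Pion (-0.66) also has 5 CpG, and Xab2 (1.40) has 23. Each is printed 5′ to 3′ on the strand of its gene, with every CG in capitals.
Zfp60, chr7:27731159-27731458 (+ strand): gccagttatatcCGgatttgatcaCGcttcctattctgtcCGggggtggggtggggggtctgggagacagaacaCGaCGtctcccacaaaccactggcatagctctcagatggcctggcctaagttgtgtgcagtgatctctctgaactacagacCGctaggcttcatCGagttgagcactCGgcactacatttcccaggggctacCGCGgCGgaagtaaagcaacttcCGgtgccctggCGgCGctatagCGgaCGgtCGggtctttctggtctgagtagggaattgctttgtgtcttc
Scn1a, chr2:66440788-66441087 (- strand): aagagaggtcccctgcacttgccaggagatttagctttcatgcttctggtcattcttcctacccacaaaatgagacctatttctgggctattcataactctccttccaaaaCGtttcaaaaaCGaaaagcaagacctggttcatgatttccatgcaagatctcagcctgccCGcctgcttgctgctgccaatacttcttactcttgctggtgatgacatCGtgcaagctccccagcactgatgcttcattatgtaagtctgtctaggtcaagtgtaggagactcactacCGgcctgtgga
Rrp7a, chr15:83122752-83123051 (- strand): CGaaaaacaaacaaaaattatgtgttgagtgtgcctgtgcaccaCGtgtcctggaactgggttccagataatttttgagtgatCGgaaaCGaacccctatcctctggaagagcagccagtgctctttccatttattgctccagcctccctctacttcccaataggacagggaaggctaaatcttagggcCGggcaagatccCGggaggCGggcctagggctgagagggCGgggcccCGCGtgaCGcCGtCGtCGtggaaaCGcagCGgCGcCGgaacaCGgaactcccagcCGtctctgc
Rangap1, chr15:81729870-81730169 (- strand): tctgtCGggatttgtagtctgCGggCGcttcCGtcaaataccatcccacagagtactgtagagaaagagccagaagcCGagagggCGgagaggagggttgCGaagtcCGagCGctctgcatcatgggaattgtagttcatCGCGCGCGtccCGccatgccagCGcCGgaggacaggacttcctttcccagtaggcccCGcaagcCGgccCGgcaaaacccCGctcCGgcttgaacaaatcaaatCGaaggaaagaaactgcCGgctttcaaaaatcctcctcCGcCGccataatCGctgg
These promoter coordinates are of GRCm38.p6 and cannot be set beside the mm9 positions of the regions. Whether each printed promoter lies in the measured region of its gene was not tested.

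Short motifs were counted in the same promoters on both strands. The GC box core GGGCGG, which contains CG and so tracks CpG content, was found in 50.8% of the 386 promoters with a difference of at least 0.5 and in 70.4% of all 5911. The ETS-type motif CCGGAAG was found in 24.9% against 18.6%, and TATAAA in 8.29% against 6.70%. The cAMP response element palindrome was found in 3.63% against 3.69%. The comparison is not matched for level, since the 386 had a median signal of 35.7 against 110.4 for all. At a mean of 20 to 40, TATAAA was found in 12.7% of promoters with under 10 CpG and 8.52% of the rest. There GGGCGG stood at 26.6% and 66.6%, and CCGGAAG at 9.83% and 20.6%. These are counts of letters and were not tested.

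Most lists of genes of defined function had a median difference near that of all genes. Counting the strongest region of every gene, 18.96% of 9868 genes lay above and 26.3% below, with a median of -0.03. These are the values against which the lists are read. They are not matched for level, and the median signal of the lists ran from 24.3 (homeobox) to 196.3 (voltage-gated channels). The part of level in the list medians was not tested. Of 67 measured cytosolic ribosomal protein genes, 21 lay above and 11 below, with a median of 0.05. Rps28, of the small subunit, had 55.5 and 55.1 on the high side against 24.6 and 34.4, and Rpl28, of the large subunit, 53.6 and 64.3 against 32.7 and 37.7. Of 60 respiratory chain genes, 24 lay above and 15 below, with a median of 0.04. Cox7a2, of cytochrome c oxidase, had 67.1 and 87.1 against 33.6 and 47.0, and Ndufa3, of complex I, 41.3 and 45.7 against 22.9 and 22.2. In the pre- and postnatal libraries 1 of the 67 ribosomal genes rose (Rpl36a, limma adjusted p = 0.048) and none of the 60 respiratory chain genes did.

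Of 19 glutamate receptor genes, 6 lay above and 2 below, with a median of 0.13. Gria1, an AMPA receptor subunit, had 81.1 and 75.1 against 42.7 and 51.5. Of 25 voltage-gated channel genes, 4 lay above and 9 below, with a median of -0.08. Their median signal of 196.3 falls in level class 8. All regions of that class had a median of -0.07, with 9.75% above and 35.3% below. Scn1a, a sodium channel subunit, had 59.8 and 77.2 against 33.2 and 38.1, and Cacna1e, a calcium channel subunit, 96.9 and 87.3 against 59.8 and 61.1. Of 37 adhesion and axon guidance genes, 12 lay above and 9 below. Besides Mdga2, Nlgn1, a neuroligin, had 66.9 and 69.8 against 44.0 and 38.2. None of the glutamate receptor and channel genes passed the pre- and postnatal test.

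Of 26 zinc finger genes, 8 lay above and 6 below. Zfp160 had 53.33 and 79.97 against 27.86 and 30.03, and Zfp60 48.1 and 63.0 against 24.4 and 28.5, the only 2 members at 2-fold or more. Among 20 immediate early genes 4 lay above and 6 below, with Per1, a clock gene, at 0.79 and Egr3, a zinc finger factor induced by activity, at -0.50. Of 15 genes of H3K4 methyltransferases and demethylases, 3 lay above and 4 below, with a median of 0.01. Hcfc1, of the SET1 and MLL complexes, stood at 0.37 and Men1, menin, at -0.29. The 4 nicotinic receptor genes with enough signal all had overlapping sides, from -0.11 in Chrna7 to -0.03. Of 27 proteasome genes 8 lay above and 7 below, with a median of 0.01, and the members farthest from 0 were Psmc3 and Psmc5 at 0.61 and 0.56. Of 18 imprinted genes 4 lay above and 4 below, with a median of 0.02, and Commd1 and Snrpn were at 0.48 and 0.41. Mef2c, an activity-regulated transcription factor, had 67.3 and 85.9 against 36.7 and 59.2, a difference of 0.69, and missed the pre- and postnatal threshold (limma adjusted p = 0.11).

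Markers of cell types had median differences between -0.13 and 0.10 in the lists described here. The lists had 15 cortical projection neuron markers at a median of -0.01, 10 GABA interneuron markers at -0.07, 7 astrocyte markers at -0.13 and 9 oligodendrocyte markers at 0.01, and the signs of the projection neuron and oligodendrocyte medians flipped under other scalings. Their summed signal in the high-side nicotine and saccharin and low-side nicotine and saccharin samples was 2577, 2428, 2525 and 2562 for projection neurons. For astrocytes it was 768.8, 786.2, 844.0 and 825.9, and for thalamic markers 814.3, 851.5, 861.1 and 909.4. In these 2 lists both high-side sums lay below both low-side sums. Of the 7 astrocyte markers 0 lay above and 3 below, and of the 9 thalamic markers 0 and 3. The counts were 4 and 3 of 15 for projection neurons, 1 and 2 of 10 for interneurons, 1 and 2 of 9 for oligodendrocytes, 3 and 1 of 9 for endothelial and 3 and 3 of 10 for striatal markers. The part of these cell type markers in other results was not tested. Endothelial markers had a median of 0.10, choroid plexus markers -0.10, striatal markers -0.13 and thalamic markers -0.08. Sox5, a transcription factor of deep-layer neurons, was the one marker at 2-fold or more, with 50.9 and 43.0 against 21.1 and 19.1. Mag, of myelin, had 26.8 and 30.1 against 12.3 and 16.5. Neither passed the pre- and postnatal test (limma adjusted p = 0.90 and 0.78).

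Xist, the RNA of the inactive X chromosome, had 47.6 and 49.6 on the high side against 24.8 and 32.0, a difference of 0.77, and a pre- and postnatal slope of 0.04 (limma adjusted p = 0.94). No gene of the Y chromosome in the list was measured. Whether the sides differ in the sex of the animals was not tested.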

How the data were processed

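H3K4me3 was measured by chromatin immunoprecipitation and sequencing in 14 libraries of mouse cortex, per the labels. The authors deposited 2 tables of normalised signal per region, with edgeR and mm9 named in the submitters' processing notes. The aligner, the peak caller and the scaling were not given in the sources used here; sequencing depth is unknown. Of 19203 rows in each table, 4322 hold no values and were left out. Library pairs within counting noise were averaged. The log2(signal + 1) difference between the sides was described for regions with a mean of at least 20. In the pre- and postnatal libraries, which took no part in the split, limma 3.58.1 (R 4.3.3) fitted the share and the treatment with 3 residual degrees of freedom, on regions with a signal of at least 1 in 3 libraries, adjusting over 14864 regions. On simulated data with known slopes of 0.3 and 0.6 it recovered 38.0% and 91.4%, with 23 false calls in 5 draws over 14866 regions. The simulated noise was drawn independently for each value, with a spread set by signal level alone. It held no outlying library, so the number of false calls in the real libraries is not known from it. No pairing of equal replicate numbers is stated. The limma p-values rest on a variance shared between regions of similar level, with 25.1 prior degrees of freedom beside the 3 residual ones. They therefore measure a region's own spread between libraries only in part. The spread between libraries may be technical.

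Named were the 14 largest and 14 lowest differences at named, non-predicted genes whose sides did not overlap, the 5 largest and lowest unassigned regions, 2 members per gene list with the largest difference, and 7 genes known from earlier results (Mamdc2, Smo, Ank1, Mdga2, Cdk5rap2, Litaf and Mef2c). A few results that this rule names are not reported here. The members and gene lists were chosen with earlier results of these data known. Genes named among the regions that rose or fell in the pre- and postnatal libraries, 2210408I21Rik, and Rpl36a were chosen after their values were seen. The 4 promoters printed were chosen in the same way. RefSeq accessions matched 11224 of the 11388 regions with a gene. Tables were handled with Python 3.11.15 and pandas 2.3.3.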

Additional observations from a re-analysis of the deposited data

Results flagged for a closer look

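Among the 2 genes named for each list, 6 had differences between the sides of opposite sign in the nicotine and the saccharin samples, each with 1 sample per side and treatment, and the difference between treatments was not tested. Gad2, which makes GABA, differed by -0.51 in nicotine and 0.98 in saccharin, -1.49 apart, with signals of 19.5 and 28.1 on the high and low side in nicotine and 22.4 and 10.8 in saccharin. Hist3h2ba, a histone gene, was at -0.85 and 0.02, -0.88 apart. Krt10, a keratin gene, was at 0.54 and -0.33, 0.87 apart. Dlx1, an interneuron homeobox gene, was at -0.57 and 0.12, -0.69 apart. Chrna7, a nicotinic receptor subunit, was at 0.16 and -0.37, 0.53 apart. Clic6, a choroid plexus marker, was at -0.28 and 0.07, -0.35 apart. All 6 had overlapping sides, which follows from the opposite signs by which they were picked.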

How the results depend on the processing

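The postnatal sides hold 2 averaged samples each and carry no test, and the depth behind the normalised signal is unknown. Of the 141 high-side regions and 0 low-side regions, pseudocount 5 gave 84 high, quantile normalization 52 high and 4 low, abundance-trended offsets 63 high and 4 low, no minimum on the mean 413 high and 5 low, the nicotine samples alone 5 low, and the saccharin samples alone 241 high and 2 low. All 52 and all 63 high-side regions under the 2 scalings were among the 141. Leaving out 1 library gave 139 to 187 high and 0 to 1 low. The other library of the pair then stood for the sample, so no averaged sample was left out. At a log2 difference of 0.5, chosen after seeing the data, the counts were 975 and 86. The mean share was 21.9% on the high side and 9.26% on the low side, and with a threshold of 10000 the latter was 7.90%.

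In the pre- and postnatal fit, the counts of regions that rose and fell, 79 and 18, were 49 and 7 under quantile normalization. Abundance-trended offsets gave 6 falling and no treatment term 28. Leaving out 1 library gave 40 to 112 rising and 2 to 62 falling. With the replicate block in place of the treatment, which leaves 1 residual degree of freedom, 123 rose and 19 fell. Of the 97 calls, 53 remained under quantile normalization, 77 with trended offsets and 77 with the block. High-side regions among those that rose numbered 50, 30 under quantile normalization and 31 to 62 without 1 library. The slope of Mdga2 reversed to -0.0077 under quantile normalization, and the cause was not tested.

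The correlations with the share for regions without a gene, the narrowest 25% and the weakest 25%, 0.97, 0.98 and 0.81, were 0.90, 0.92 and 0.79 without the 2 farthest libraries, 0.99, 0.99 and 0.93 in nicotine and 0.94, 0.98 and 0.81 in saccharin, sets too small to be tested. Without the 31 high-side regions over 100, they were 0.78, 0.85 and 0.85, and the first missed the threshold. Among the 91 named regions, a reversal of the postnatal difference was counted only where the sides did not overlap. None of those reversed under the alternatives run, and sign changes in regions with overlapping sides were not counted. List medians kept their sign under 3 other scalings in 17 of 24 lists. The exceptions were the projection neuron, oligodendrocyte, homeobox, immediate early, histone, imprinted and zinc finger lists.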
